A study of Mus musculus with 2 samples.

Results

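Later intron peaks are the open chromatin sites of regulatory T cells (Treg cells) that lie deep inside genes, in the second or a following intron. They numbered 5872 of the 34610 peaks in the authors' IDR-thresholded list, or 17.0% (exact 95% interval 16.6 to 17.4%), and 52.0% of all 11289 intronic peaks. A peak counted when its summit lay more than 1 kb from every annotated transcription start site (TSS), outside all exons, and inside intron 2 or later of a principal transcript of a protein-coding gene, the transcript that the annotation ranks as the gene's main one. Summits that also lay in a first intron of such a transcript were left out. The same tests put 3549 peaks in first introns and 4753 in intergenic sequence more than 10 kb from a TSS, which serve below as the most similar classes. ATAC-seq, in which the transposase Tn5 inserts adapters into accessible DNA, was run on primary Treg cells labelled as originating from bone marrow haematopoietic cells. The cells came from an adult male mouse of 4 months, strain Foxp3CreERT2 x Rosa26YFP, which pairs a tamoxifen-dependent Cre expressed from Foxp3 with a YFP reporter at Rosa26. The labels give no tamoxifen treatment and no other group. Both libraries are technical replicates of 1 biological replicate and entered the same peak lists, so every value describes 1 sample. Peaks and genes are not replicates, no p-value was computed, and the 95% intervals cover counting error only. The lists hold no read counts, so the depth behind each peak is unknown.

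Introns are removed from the transcript, but their DNA carries many enhancers, short stretches where transcription factors bind and raise the activity of a promoter that can lie far away. First introns often hold regulatory sequence that works close to the promoter, whereas later introns reach deep into long genes. In T cells, enhancers are known for sites of ETS and RUNX factors, which act throughout the lineage, and of AP-1 and NF-kB, which respond to activation. CTCF, an architectural protein, marks a different kind of open site, often at the anchors of chromatin loops.

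The letters that recur under later intron summits are shown for 6 transcription factor families, each by the peak of highest signal that lay in a gene of the 7 T cell lists and had the motif within 50 bp of its summit. Signal is the authors' enrichment value per peak. Each window takes in the summit and 50 bp on either side, is read from the plus strand of GRCm38 (mm10), and has the named motif in capitals. The ETS motif (AGGAAGT, here on the minus strand) stands at chr14:27317279-27317379 in Arhgef3, a gene for a guanine nucleotide exchange factor, under a peak with a signal of 24.0. The RUNX motif (TGTGGTT, plus strand) stands at chr3:131208650-131208750 in the last intron of Lef1, which encodes an HMG-box transcription factor of T cells (signal 23.0). The AP-1 motif (TGACTCA, a letter run that differs from its reverse complement only at its centre) stands at chr11:98470338-98470438 in the last intron of Ikzf3, which encodes the lymphoid zinc finger factor Aiolos (signal 18.1). The NF-kB motif (GGANTTTCC, minus strand) stands at chr6:99057384-99057484 in the forkhead factor gene Foxp1 (signal 14.3). The CTCF motif (CNAGNGGGC, minus strand) stands at chr2:83771538-83771638 in Itgav, the integrin alpha V gene (signal 24.6). The TCF/LEF motif (CTTTGAT) stands on both strands, as 2 matches, at chr2:43992658-43992758 in Arhgap15, a gene for a Rac GTPase-activating protein (signal 22.4).
Arhgef3 intron 2: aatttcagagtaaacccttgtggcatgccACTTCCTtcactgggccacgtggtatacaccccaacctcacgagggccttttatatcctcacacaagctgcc
Lef1 intron 11: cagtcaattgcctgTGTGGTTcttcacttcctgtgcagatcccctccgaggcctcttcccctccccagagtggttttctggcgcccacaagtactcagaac
Ikzf3 intron 7: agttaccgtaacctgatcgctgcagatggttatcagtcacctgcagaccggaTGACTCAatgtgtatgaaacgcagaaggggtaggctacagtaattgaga
Foxp1 intron 4: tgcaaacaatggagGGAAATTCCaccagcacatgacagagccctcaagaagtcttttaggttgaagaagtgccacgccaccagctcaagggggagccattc
Itgav intron 12: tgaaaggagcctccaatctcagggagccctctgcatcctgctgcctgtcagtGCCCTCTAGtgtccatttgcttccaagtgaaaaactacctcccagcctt
Arhgap15 intron 6: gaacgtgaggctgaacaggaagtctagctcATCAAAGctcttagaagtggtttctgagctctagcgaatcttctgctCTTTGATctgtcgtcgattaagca

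ETS, CTCF, AP-1 and RUNX letters were concentrated at the summits of later intron peaks. The search covered both strands of the 200 bp around each summit and of equal windows 1 kb to either side. ETS letters occurred in 1295 of 5872 summit windows (22.05%, 21 to 23.14%) and in 5.12% of 11744 flanking windows, a ratio of 4.31. CTCF letters occurred in 7.51% of summit windows and 1.80% of flanks (ratio 4.18), and AP-1 letters in 10.6% of summit windows and 3.58% of flanks (ratio 2.96). RUNX letters occurred in 12.4% of summit windows and 5.22% of flanks, which gave a ratio of 2.37. The rarer NF-kB motif stood in 1.75% of summit windows against 0.681% of flanks (ratio 2.58), and TCF/LEF in 4.73% of summit windows against 3.27% of flanks (ratio 1.45). Across all 34610 peaks, the same 200 bp windows held ETS in 17.4%, RUNX in 9.07%, CTCF in 8.04%, AP-1 in 7.74%, TCF/LEF in 3.46% and NF-kB in 1.53%. A match shows that the letters are present and is no evidence of binding.

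**Figure D1:**
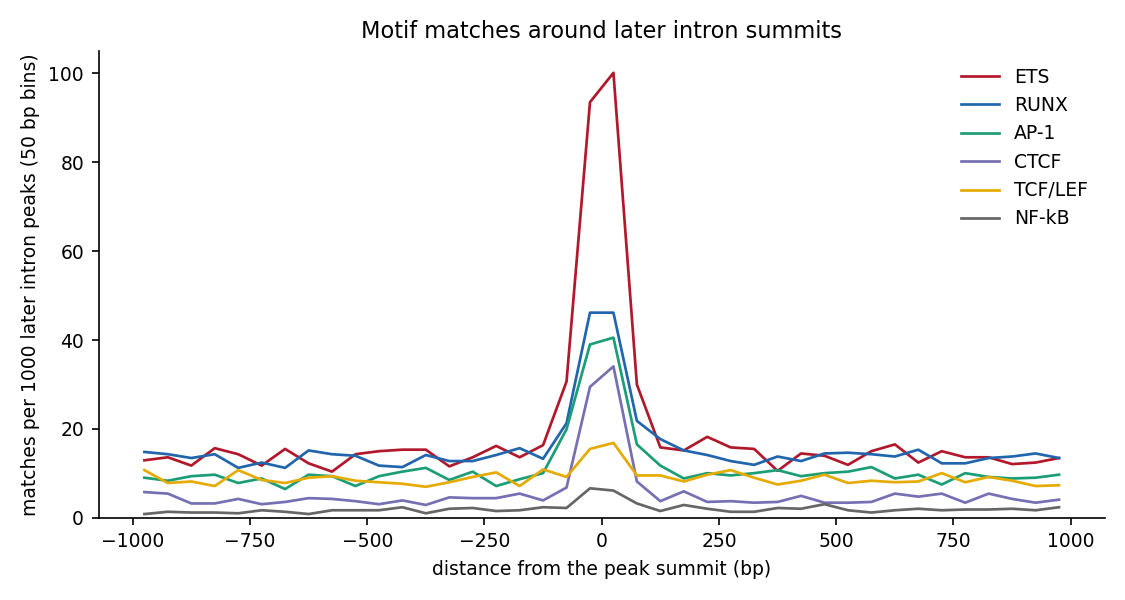
Motif matches per 1000 later intron peaks (y axis) in 50 bp bins by distance from the summit in bp (x axis), 1 line per motif. ETS reached 93.5 and 100.1 matches per 1000 peaks in the bins on either side of the summit, against 12.9 in the bin from -1000 to -950 bp.

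The matches were close to the summit. In the 50 bp after the summit, there were 100.1 ETS, 46.2 RUNX, 40.5 AP-1 and 34.1 CTCF matches per 1000 later intron peaks. In the bin from 500 to 550 bp, the same motifs gave 11.9, 14.7, 10.4 and 3.41 matches per 1000 peaks. For ETS the bin from 50 to 100 bp gave 29.97 and the bin from 100 to 150 bp 15.8, so the excess was confined to about 100 bp on either side. The interferon regulatory factor motif (IRF, GAAACNGAA) also stood above its flanks, in 3.24% of summit windows against 1.45% of flanks (ratio 2.24), as did SP (CCCCGCCC), in 2.55% of summit windows against 0.809% of flanks (ratio 3.16). The forkhead motif (TGTTTAC), the family of Foxp3, stood in 3.93% of summit windows and 2.79% of flanks (ratio 1.41). NFAT letters (TGGAAAA) were fewer at summits than in flanks, in 3.85% of summit windows against 5.48% of flanks (ratio 0.702). These ratios were not particular to later introns. First intron and intergenic peaks gave 3.37 and 2.60 for IRF, 2.48 and 3.73 for SP, 1.545 and 1.41 for forkhead, and 0.696 and 0.831 for NFAT. The liver factor motif HNF4 (CAAAGTCCA) was rare in all windows: 5 later intron summits (0.0852%), 0.2725% of their flanks and 46 of all 34610 peaks (0.133%). ETS, NFAT, STAT and NF-kB motifs share the run GGAA and can overlap on the same bases. Base composition differed between the windows: summit windows had a median GC content of 48.0% against 45.5% in flanks, and 4.07% of summit windows against 16.1% of flanks were mostly repeat-masked. Its part in the motif ratios was not tested.

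CTCF letters were more frequent in later intron than in first intron peaks, though not more than over all peaks (8.04%) or in promoter peaks (9.04%). They stood in 441 later intron windows (7.51%, 6.85 to 8.21%), against 141 first intron windows (3.97%, 3.35 to 4.67%). The share was higher in later introns on each of the 20 chromosomes that had at least 20 members. Against intergenic peaks the share did not stand apart: 7.79% of those windows (7.04 to 8.58%) had the motif, and later introns were higher on 8 of 20 chromosomes. The difference from first introns was present at 1 to 5 kb from a TSS, where 8.71% of later intron windows (7.42 to 10.1%) and 4.62% of first intron windows (3.56 to 5.89%) had the motif. At 5 to 20 kb the shares were 7.74% (6.76 to 8.81%) in later introns and 3.27% (2.46 to 4.26%) in first introns. Beyond 20 kb, the values were 5.66% (4.53 to 6.98%) in later introns and 4.43% (2.91 to 6.42%) in first introns, with intervals that overlap.

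For the other families the classes were closer. ETS letters stood in 22.1% of later intron windows, 25.02% of first intron windows (23.6 to 26.5%) and 21% of intergenic windows (19.9 to 22.2%), and were more frequent in later than in first introns on 3 of 20 chromosomes. RUNX letters stood in 12.4% of later intron, 12.4% of first intron and 12.9% of intergenic windows. AP-1 letters stood in 10.6% of later intron, 10.5% of first intron and 12.1% of intergenic windows. Promoter windows differed in kind: RUNX letters stood in 12.4% of later intron windows and 4.27% of promoter windows, and SP letters in 2.55% of later intron windows and 24.5% of promoter windows. Median GC content was 48.0% in later intron windows and 62.0% in promoter windows.

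CTCF letters were less frequent in later intron peaks that held ETS, RUNX or AP-1 letters than in those that did not. Of the peaks with ETS letters 3.71% also had CTCF letters, against 8.59% of those without ETS. CTCF letters stood in 3.44% of peaks with RUNX letters and 8.08% of those without, and in 3.54% of peaks with AP-1 letters and 7.98% of those without. RUNX letters stood in 11.97% of peaks with ETS and 12.48% of those without, and 155 peaks held both. AP-1 letters stood in 9.23% of peaks with RUNX and 10.8% of those without, and NF-kB letters in 1.08% of peaks with ETS, 14 in all, and 1.95% of those without. The differences between these pairs were not tested. None of the 6 motifs stood in 2993 peaks (50.97%), 2341 held 1, 491 held 2 and 47 held 3. Median signal was 12.1 in peaks with none, 12.5 with 1, 13.8 with 2 and 12.7 with 3. Later intron peaks with CTCF letters were narrower, at a median of 486 bp, than those with ETS (589 bp) or RUNX letters (616.5 bp).

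Later introns were open more often than distant intergenic sequence and less often than first introns. The rule left 576.1 Mb of eligible later intron sequence, 21.8% of the genome outside assembly gaps, which gave 10.2 peaks per Mb (9.93 to 10.5). First introns gave 16.1 peaks per Mb (15.5 to 16.6) over 221.0 Mb, and intergenic sequence more than 10 kb from a TSS gave 4.59 (4.46 to 4.73). The density in later introns was thus 0.635 times that in first introns (0.609 to 0.662) and 2.22 times that of the intergenic sequence (2.14 to 2.31). It was above the intergenic density on all 20 chromosomes and below that of first introns on 19. The exception was chromosome 16, with 15.7 peaks per Mb in later introns and 13.9 in first introns. Of the 20, chromosome X had the lowest density, 3.56 peaks per Mb, as it also did in first introns (6.53) and intergenic sequence (1.69). Chromosome Y had 13 peaks of any class and no later intron peak.

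**Figure D2:**
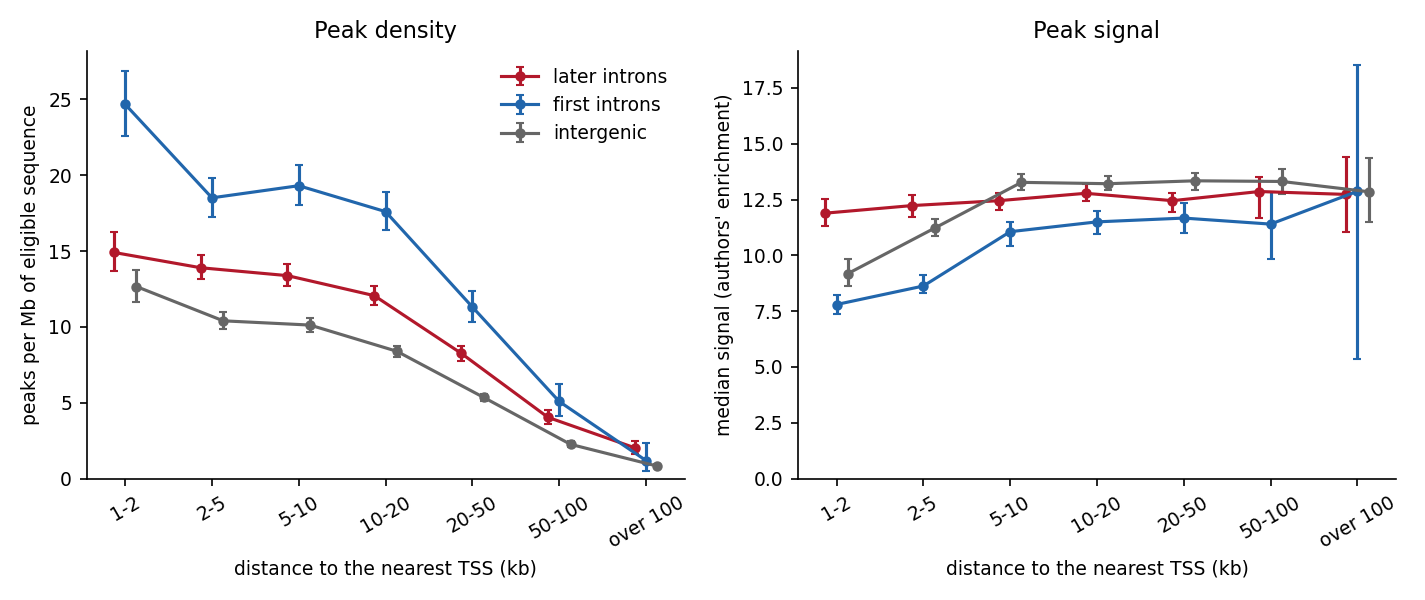
Peaks per Mb of eligible sequence (left y axis) and median signal (right y axis) by distance to the nearest TSS in kb (x axis), for later introns, first introns and intergenic sequence, with 95% counting intervals. At 1 to 2 kb later introns had 14.9 peaks per Mb against 24.7 in first introns, and a median signal of 11.9 against 7.80.

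The density was highest at 1 to 2 kb from the nearest TSS and lowest beyond 100 kb in all 3 classes. It fell at each step in later introns and intergenic sequence, while first introns had 18.5 peaks per Mb at 2 to 5 kb and 19.3 at 5 to 10 kb. At each distance up to 50 kb later introns lay between first introns and intergenic sequence. At 1 to 2 kb from a TSS, later introns had 14.9 peaks per Mb, first introns 24.7 and intergenic sequence 12.7. At 20 to 50 kb, later introns had 8.26, first introns 11.3 and intergenic sequence 5.35. Beyond 100 kb only 87 later intron peaks remained (2.03 per Mb), with 8 in first introns (1.19 per Mb, 0.512 to 2.34). The median later intron peak lay 9.51 kb from the nearest TSS of any gene (interquartile range 4.25 to 19.7 kb) but 47.2 kb from the TSS of its own host transcript (20.4 to 105.1 kb). At the 1 kb limit of the rule, the 268 members at 1000 to 1500 bp had a median signal of 11.7, and the 321 peaks at 500 to 1000 bp that met its other conditions had 11.6.

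Pooled over all genes, the density was lower at high intron numbers, though it did not fall at each step. Introns 5, 6 to 7 and 8 to 10 had 9.81, 9.99 and 10.2 peaks per Mb. High intron numbers occur only in genes with many introns, so these groups hold different genes. Intron 2 held 1309 of the members (22.3%) at 11.97 peaks per Mb (11.3 to 12.6), intron 3 had 11.2 per Mb, and introns from number 21 on had 6.90 (6.20 to 7.67). The median host was intron 5 (interquartile range 3 to 9), and 674 members (11.5%) lay in the last intron of their transcript. The highest intron number was 166. Very long introns were sparse: introns of 2 to 5 kb had 12.9 peaks per Mb, those of 50 to 100 kb 7.59 and those over 100 kb 4.51 (4.10 to 4.96). Members did not crowd at splice sites. Within 200 bp of a splice site the density was 11.8 per Mb (497 peaks), at 2 to 5 kb 12.7, and beyond 10 kb 6.60. Of the summits, 49.4% lay nearer to the splice donor than to the acceptor of their intron.

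The median signal of later intron peaks lay between those of first intron and distant intergenic peaks. This order depended on which peaks were kept and on the distance to a TSS. The median was 12.5 (12.3 to 12.6), with an interquartile range of 8.91 to 16.7 and a full range of 1.86 to 44.2. First intron peaks had a median of 10.1 (9.84 to 10.4), intergenic peaks 13.3 (13.1 to 13.5) and promoter peaks 15.4. With only peaks at or above the median signal, the interval of the difference took in 0 against first introns (0.432, -0.0506 to 0.888) and against intergenic peaks (-0.14, -0.537 to 0.186). Against intergenic peaks it also did so over every listed summit (-0.00072, -0.368 to 0.416) and after a cutoff at the median of −log10 p (-0.72, -1.37 to 0.0306). On all 20 chromosomes the median in later introns was above that in first introns and below that in promoters, while it was above the intergenic median on 4. By the authors' −log10 p, which measures the evidence for a peak, the order was another one: 80.8 in later introns (78.5 to 82.9), 85.2 in first introns, 85.9 in intergenic peaks and 232.3 in promoters. The median width was 560 bp in later introns, 550 bp in first introns, 591 bp in intergenic peaks and 911 bp in promoters. More than 1 summit was listed in 42.2% of later intron peaks, against 75.6% of promoter peaks.

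**Figure D3:**
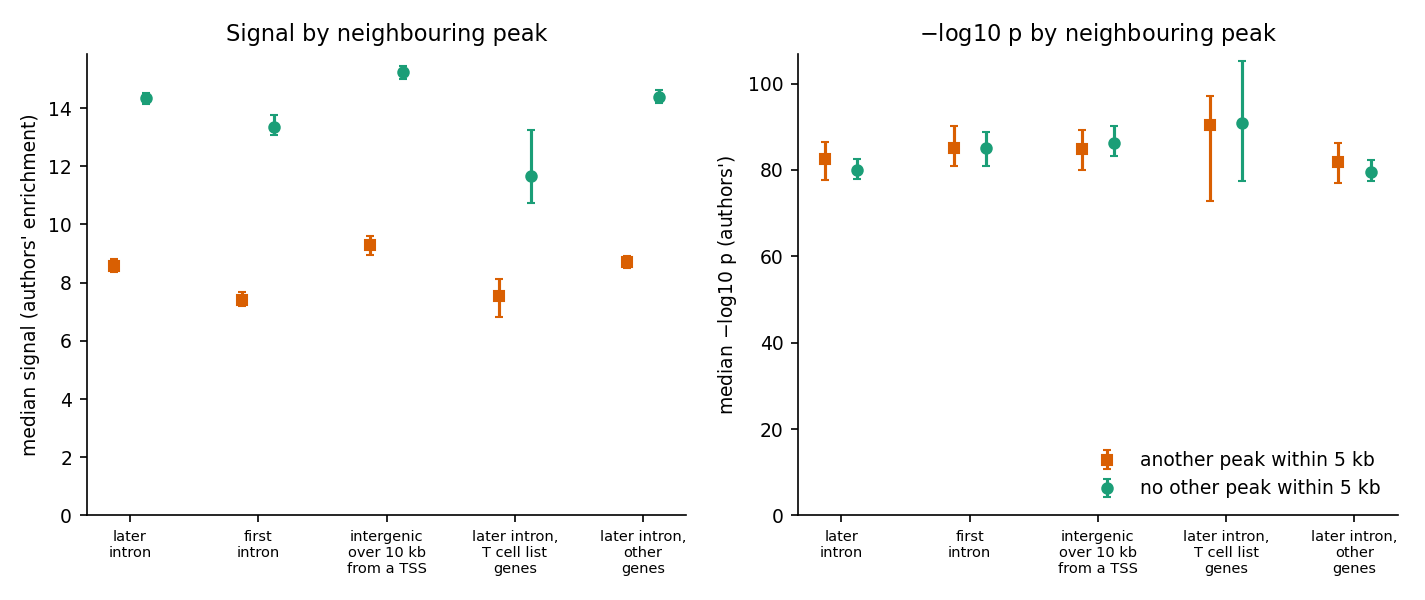
Median signal (left y axis) and median −log10 p (right y axis) with 95% intervals, for peaks with another peak within 5 kb (squares) and without one (circles), by class on the x axis. Later intron peaks had a median signal of 8.58 beside another peak and 14.4 without one, while their median −log10 p was 82.5 and 79.9.

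Signal moved with the presence of a neighbouring peak, and the classes differed in how often they had one. The 975 members with another summit within 2 kb had a median signal of 8.40 (8.02 to 8.76), and the 944 at 2 to 5 kb had 8.70 (8.504 to 8.957). At 5 to 10 kb the 1364 members had 13.8 (13.6 to 14.2), and at 10 to 20 kb 14.9. The −log10 p showed no such step, with medians of 80.3, 84.0, 88.3 and 81.8 in these 4 ranges. The background against which the authors computed enrichment is not given in the sources used here. Another peak stood within 5 kb of 32.7% of later intron peaks, 50.4% of first intron peaks and 33.2% of intergenic peaks. Among peaks with no neighbour within 5 kb, the median signal was 14.4 in later introns (14.1 to 14.5), 13.4 in first introns (13.1 to 13.8) and 15.2 in intergenic sequence (15.0 to 15.4). Among peaks with one, it was 8.58 in later introns, 7.42 in first introns and 9.30 in intergenic sequence. The difference of 2.33 between later and first introns over all peaks was therefore 0.989 (0.374 to 1.45) among peaks without a neighbour, a split chosen after its values were seen.

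Ranked by signal, which moved with neighbouring peaks, the 59 members of the highest hundredth held none from the T cell lists, whose genes had 376 of all 5872 members. The highest signal of all later intron peaks, 44.2, was in intron 2 of Gnb1l, a WD-repeat protein gene (chr16:18533121-18533386). It was followed by Lrrc6 (33.8), Bphl (33.7), Mrps27 (32.6), which encodes a mitochondrial ribosomal protein, and Ift81 (32.5), which encodes a protein of transport in cilia. Kynu (31.8), Tmem242 (31.4), Zgrf1 (31.2), Slco3a1 (31.2) and Tmem241 (30.9) completed the first 10. The peak of Mrps27 also had the highest −log10 p of all members, 1030. Of these 10, the peaks of Lrrc6 and Zgrf1 held CTCF letters and that of Lrrc6 held ETS letters, while those of Gnb1l, Bphl, Kynu and Tmem242 held none of the 21 motifs searched. The nearest other peak was 34.5 kb away at Gnb1l, 49.1 kb at Kynu and 7.97 kb at Lrrc6, and none of the 10 had one within 5 kb. In 4 equal groups of members ordered by signal, lowest first, the share with CTCF letters was 5.31%, 7.43%, 7.43% and 9.88%, and that with ETS letters 20.4%, 20.9%, 21.7% and 25.3%. Another peak within 10 kb stood beside 82.4%, 57.9%, 45.6% and 37.7% of the members in the same order.

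Host genes were a minority, and a few long ones held many members. Of 16927 protein-coding genes with later intron sequence, 3042 (18%) hosted at least 1 member. Of the hosts, 1885 had 1 member, 211 had 5 or more and 49 had 10 or more. The 211 genes held 1639 members, or 27.9% of the total. Hosts had more sequence to hold them, with a median of 34.1 kb of eligible later intron sequence against 7.80 kb in the other genes. The members lay in 4414 introns, of which 3611 held 1, and 5813 members had a single host gene.

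The 20 genes with most members had 13 to 23 each. Wwox, an oxidoreductase gene known for its great length, and Nsmce2, which encodes a SUMO ligase of the SMC complexes, had 20, and the DNA repair gene Rad51b had 19. Lpp and Atxn1 had 18 each, and Asap1 and the protein kinase gene Prkca 16 each. Signalling genes were among them: Cblb had 16, Fyn and the inositol trisphosphate receptor gene Itpr1 had 15, and the cAMP phosphodiesterase gene Pde4d had 14. Clec16a, Arhgef3, Akap13 and the RNA-binding protein gene Msi2 also had 14. The transcriptional regulators Bach2 and Arid5b had 13, as did the exocyst gene Exoc2. The 2 remaining entries are gene models that run across other genes. Gm20696 led with 23, of which 20 lay inside Foxp1 and 3 inside Eif4e3 on the same strand, and Gm37240 had 13. Of the 20 genes, 17 had a peak within 1 kb of a principal TSS, and Gm20696, Asap1 and Pde4d did not. Cblb, Fyn, Arhgef3, Akap13 and Bach2 stand in the T cell lists, which were chosen with earlier results of these data known.

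Single introns could hold long rows of open sites. Intron 8 of Wwox, 639.4 kb long, held 20 members with signals from 4.42 to 29.0. Intron 4 of Gm20696 held 13 in 126.8 kb. Intron 2 of Bach2 held 12 in 100.1 kb, intron 4 of Nsmce2 12 in 136.2 kb, and intron 2 of the sialyltransferase gene St6galnac5 12 in 134.4 kb.

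Genes with an open promoter were denser in later intron peaks. Of 9277 genes with a peak within 1 kb of a principal TSS, 2163 hosted a member (23.3%, 22.5 to 24.2%), against 879 of the 7650 other genes (11.5%, 10.8 to 12.2%). The density was 16.4 later intron peaks per Mb (15.9 to 16.9) in genes with an open promoter and 5.05 (4.81 to 5.31) in the others. The contrast was present in each length range: with 20 to 50 kb of later intron sequence, 36.5% of genes with an open promoter and 18.2% of the others hosted a member, and above 100 kb 70.3% with an open promoter and 24.97% of the others did. First introns had 30.6 peaks per Mb in genes with an open promoter and 4.79 in the others. The members themselves did not follow this order in signal, with a median of 12.3 in the 4305 that lay in genes with an open promoter and 12.7 in the other 1567.

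**Figure D4:**
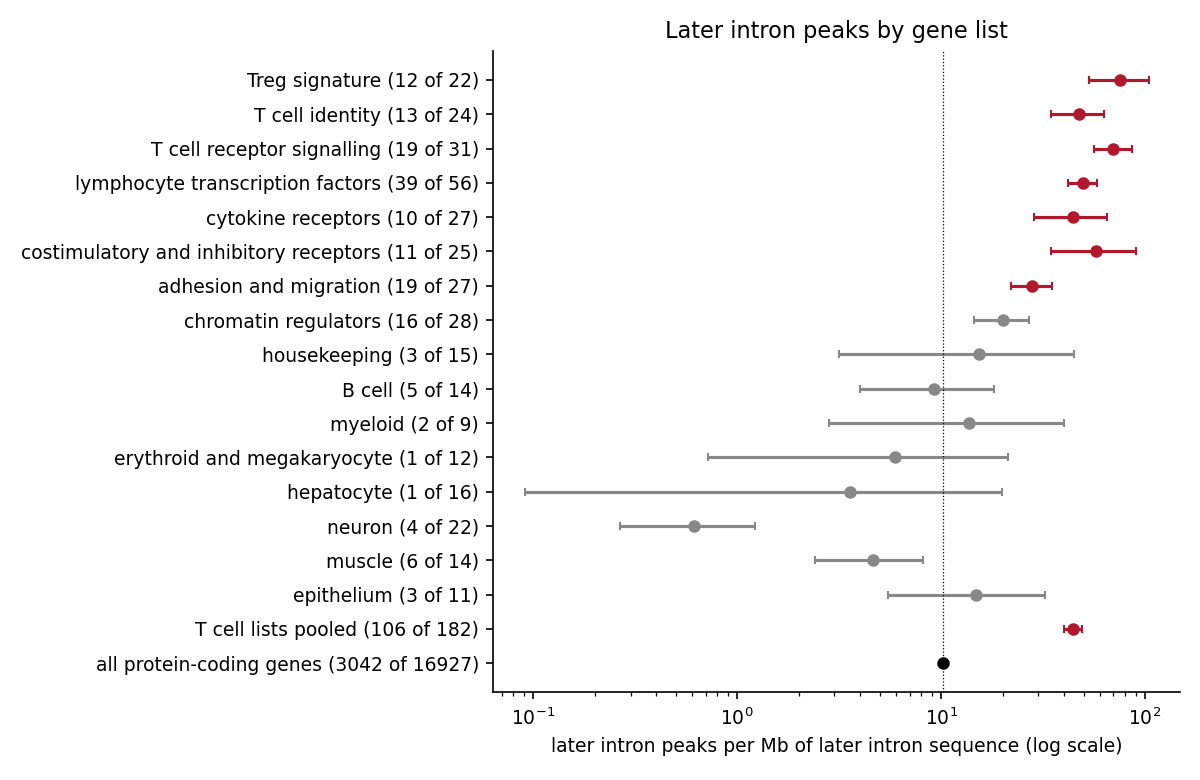
Later intron peaks per Mb of later intron sequence (x axis, log scale) with exact 95% Poisson intervals for each gene list (y axis), with hosts of genes that have such sequence in parentheses and a dotted line at the value of all genes. The 7 T cell lists lie between 28.0 and 75.5 peaks per Mb, against 10.2 for all protein-coding genes.

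Genes of the 7 T cell lists were several times denser in later intron peaks than genes at large. The 7 T cell lists together had 182 genes with later intron sequence, of which 106 hosted a member (58.2%, 50.7 to 65.5%), against 18% of all genes. They held 376 members at 44.4 per Mb (40.0 to 49.1), against 10.2 per Mb over all genes and 16.4 over genes with an open promoter. Of the 182 genes, 161 had a peak within 1 kb of a principal TSS. Their median length of later intron sequence was 18.2 kb, against 10.5 kb over all genes. The lists were chosen for these cells with earlier results of these data known, and they share some members. The contrast with all genes therefore describes these lists and is no independent test.

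Genes that mark the Treg lineage had the highest density of the lists, 75.5 peaks per Mb (53.1 to 104). This interval overlapped those of all other T cell lists except adhesion and migration. Of 22 genes, 12 (54.5%) hosted 37 members, beside 58.2% of genes in the pooled T cell lists. Ikzf2, which encodes the Treg transcription factor Helios, had 10, Nrp1, the gene of the surface receptor neuropilin-1, had 8, and the inhibitory receptor gene Tigit had 4. Ctla4, an inhibitory receptor on which Treg function depends, had 1, in intron 3 (chr1:60913192-60913714), with a signal of 6.05 and a −log10 p of 215.5. Foxp3, the lineage's defining factor, and Il2ra, the high-affinity IL-2 receptor chain gene, hosted none, although Il2ra had 6 first intron peaks and Foxp3 1. The Ikzf2 member with the highest −log10 p, 626.8, lay 141.4 kb from the host TSS in intron 6. The 8 members of intron 3 of Ikzf2 lay 4.62 to 106.7 kb from the TSS with signals from 4.75 to 9.32, and the 1 member of intron 5 had 7.75.

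Genes of T cell identity had 13 of 24 hosts at 47.4 peaks per Mb (34.7 to 63.2). Bcl11b, the factor that commits thymocytes to the T lineage, had 11 members with signals of 3.84 to 9.81, in introns 2 and 3. Lef1 had 7, and the member of its last intron, printed above for RUNX, had a signal of 23.0 and a −log10 p of 625.1, against signals of 4.12 to 11.1 in the other 6. Ets1, a founding factor of the ETS family, had 5 with signals of 4.45 to 6.84, all with another peak within 5 kb. Cd4, the co-receptor gene, hosted none in 9.23 kb of later intron sequence and had 2 first intron peaks. Cd3e, Cd3g, Lck, Zap70 and Lat, genes of the T cell receptor machinery, and the costimulatory receptor gene Cd28 hosted none either. They had little later intron sequence, from 1.16 kb in Lat to 7.64 kb in Zap70, and all had a promoter peak. Cd28 also had 3 first intron peaks and Lck 2.

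T cell receptor signalling had 19 of 31 hosts at 69.7 peaks per Mb (55.9 to 85.8). Cblb, a ubiquitin ligase gene whose product restrains T cell activation, led with 16. Its members ran from 6.92 to 168.8 kb from the host TSS. The 3 strongest had signals of 20.7, 20.2 and 19.6, at 150.7, 168.8 and 98.1 kb, and the strongest held CTCF letters. The member at 98.1 kb held RUNX letters and the highest −log10 p of the gene, 599.6. Fyn, which encodes a Src family kinase, had 15 with signals of 3.20 to 18.2, and its strongest member, 32.9 kb from the TSS, held RUNX letters. Prkch, the gene of protein kinase C eta, had 12 within a narrower range of signals, 6.67 to 12.1.

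**Figure D5:**
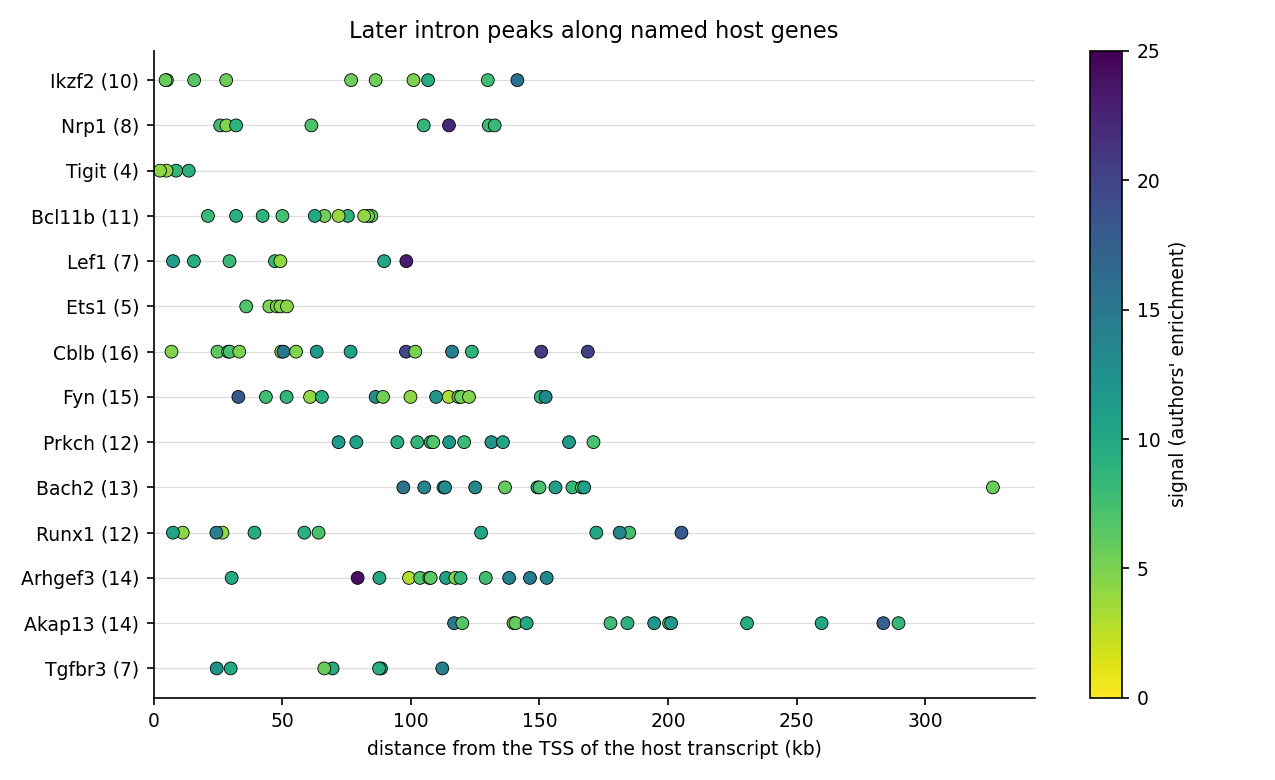
Later intron peaks (points) by distance from the TSS of the host transcript in kb (x axis) in 14 host genes of the T cell lists (y axis, number of peaks in parentheses), coloured by signal. Cblb, Arhgef3, Nrp1 and Lef1 each hold at least 1 member with a signal above 20 beside weaker ones, while all 5 of Ets1 stay below 7.

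Lymphocyte transcription factors had 39 of 56 hosts at 49.4 peaks per Mb (41.9 to 57.8). Bach2, a repressor that keeps lymphocytes from effector differentiation, had 13. Of these, 12 lay at 97.1 to 167.4 kb from the host TSS in intron 2, with signals of 5.99 to 15.5, and the other lay at 326.3 kb. Runx1, which encodes a RUNX factor, had 12 with signals of 4.29 to 17.8. CTCF letters stood in 3 of them, a count picked after it was seen, beside 5.05% of members in all T cell genes. Bach2 also had 11 first intron peaks.

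Genes of cytokine receptors and of costimulatory and inhibitory receptors held fewer members each, unlike those of adhesion and migration. Cytokine receptors had 10 of 27 hosts at 44.3 peaks per Mb (28.7 to 65.4), led by Tgfbr3 with 7 and by Tgfbr2, a signalling chain of the TGF-beta receptor, and the decoy receptor gene Il1r2 with 3 each. The 3 members of Tgfbr2 had signals of 11.4, 13.1 and 17.4. Costimulatory and inhibitory receptors had 11 of 25 hosts at 57.5 per Mb (34.6 to 89.9). After Tigit came Cd96 with 3 and Slamf1 with 2. Adhesion and migration genes had 19 of 27 hosts at 28.0 per Mb (22.0 to 35.1). Arhgef3 and Akap13, both genes of guanine nucleotide exchange factors, had 14 each and Dock10 had 6. ETS letters stood in 5 of the 6 in Dock10 and 0 of 15 in Fyn, beside 19.95% over all T cell genes. These 2 genes were picked for this count after its values were seen.

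Each list of other programs and cell types had a lower density than any of the 7 T cell lists. Several of the intervals overlapped, however, and some lists had as large a share of hosts. Chromatin regulators had 16 of 28 hosts (57.1%, 37.2 to 75.5%), beside 58.2% in the pooled T cell lists. Their density was 20.04 per Mb (14.4 to 27.1), an interval that overlaps that of adhesion and migration genes (22.0 to 35.1). They were led by the BAF complex gene Arid1b with 12, Tet3 with 7 and Hdac4 with 3. Housekeeping genes had 3 of 15 hosts (Xpo1, Snrpd3 and Hprt, 1 member each) at 15.3 per Mb (3.16 to 44.8). B cell genes had 5 of 14 hosts at 9.26 per Mb (4.00 to 18.2), led by Bank1 with 3, Blk with 2 and Ebf1 with 1, and their share of hosts was 35.7% (12.8 to 64.9%) beside the 18% of all genes. Myeloid genes had 2 of 9 (Itgam with 2 members, Spi1 with 1) at 13.7 per Mb (2.83 to 40.1). The erythroid and megakaryocyte list had 1 of 12 (Vwf, 2) and hepatocyte genes 1 of 16 (C3, 1). Epithelial genes had 3 of 11 hosts, Cdh1 with 4 and Grhl2 and Esrp1 with 1 each, at 14.9 per Mb (5.46 to 32.4). The housekeeping, myeloid and epithelial intervals rest on few members and overlap that of adhesion and migration genes. Muscle genes had 6 of 14 (42.9%, 17.7 to 71.1%) at 4.64 per Mb (2.40 to 8.11), led by Neb with 6, Ryr1 with 2 and Mybpc1 with 1. Neuronal genes had the lowest density, with 8 members in 12.96 Mb or 0.618 per Mb (0.267 to 1.22). Of these, Camk2a held 3 and Dlgap1 and Rbfox3 2 each. Their share of hosts, 4 of 22 (18.2%), was near the 18% of all genes. The median neuronal gene had 408.2 kb of later intron sequence, against 10.5 kb over all genes, and 3 had a promoter peak. Genes with over 100 kb and no open promoter had 2.76 per Mb. The part of gene length was not tested.

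Open promoters were counted as a check of the cell type label. A peak within 1 kb of a principal TSS stood at 21 of 24 genes of T cell identity and 16 of 22 of the Treg signature with later intron sequence, against 9277 of all 16927 genes. The defining factor Foxp3 and the Treg factor gene Ikzf2 had no such peak. Lists that mark no lineage reached similar or higher shares, with 15 of 15 housekeeping genes and 22 of 28 chromatin regulators. Among lists of other cell types, a promoter peak stood at 2 of 14 B cell (Ebf1 and Cr2), 0 of 9 myeloid, 3 of 12 erythroid and megakaryocyte and 0 of 16 hepatocyte genes. Later intron peaks themselves were present in genes of other blood lineages, among them 5 B cell and 2 myeloid genes, and their part in the counts of the T cell lists was not tested. Fewer cells of a type and less open chromatin per cell cannot be told apart in such a pool.

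Members in T cell genes were numerous but low in signal. The 376 had a median signal of 9.27 (8.85 to 9.98), against 12.7 (12.5 to 12.9) in the 5496 members of other genes, and 6.65% against 19.2% reached the top 25% of all peaks by signal. Their median −log10 p was 90.8 (79.0 to 97.1) against 80.2 (78.1 to 82.4). The nearest other peak was closer in T cell genes, at a median of 5.24 kb (4.50 to 5.84) against 8.47 kb (8.17 to 8.89). Among members with no neighbour within 5 kb, the median signal was 11.7 (10.8 to 13.2) in T cell genes and 14.4 (14.2 to 14.6) in other genes. Among members with one, it was 7.53 (6.84 to 8.13) in T cell genes and 8.70 (8.49 to 8.91) in other genes. The intervals of the motif shares overlapped. ETS letters stood in 19.95% of members in T cell genes (16.03 to 24.35%) and 22.2% of the others (21.1 to 23.3%), and RUNX letters in 15.2% in T cell genes (11.7 to 19.2%) and 12.2% of the others (11.3 to 13.1%). CTCF letters stood in 5.05% in T cell genes (3.07 to 7.78%) and 7.68% of the others (6.99 to 8.41%).

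Many weaker later intron sites lay outside the thresholded list. The authors' longer pseudoreplicated list placed 11956 of its 58871 peaks in later introns by the same rule (20.3%). Of these, 5863 (49.0%) overlapped a peak of the thresholded list, and the other 6093 had a median signal of 5.31 against 12.5 for those that overlapped. The share that overlapped a thresholded peak was 50.6% for first introns, 52.4% for intergenic peaks more than 10 kb from a TSS and 75.1% for promoters. Of the 5872 members, 5863 (99.9%) overlapped a peak of the longer list.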

How the data were processed

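The authors deposited 3 peak lists on mm10, made from an alignment that both libraries share, per the file listings. Each line gives an interval, a summit, a signal value and a −log10 p, all computed by the authors, and the deposited ranked list adds a −log10 IDR (irreproducible discovery rate). The sources used here do not give the aligner, the peak caller, their versions, a Tn5 shift or the reference of the signal. The signal is the authors' own value and served to describe, rank and filter peaks of 1 list.

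Lines of the thresholded list that share an interval were reduced to the summit of highest signal. Classes came from GENCODE M21 on GRCm38.p6, with 21 chromosomes, and densities used the bases that met the same conditions outside assembly gaps. The host was the shortest gene with such an intron, by its principal transcript of best APPRIS rank and, among equals, most introns. Shares have Clopper-Pearson, densities Poisson and medians order-statistic 95% intervals, from Python 3.11.15 with numpy 2.4.6, pandas 2.3.3 and scipy 1.17.1, and figures were drawn with matplotlib 3.10.9. The functions were tested on simulated data. The classes of random positions equalled those from a direct search of the annotation. Planted later intron summits were drawn from the eligible sequence itself, so their full recovery was fixed in advance.

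The members, the 16 gene lists (349 entries, all matched), the 21 motifs and the alternatives were chosen with earlier results of these data known. Named are the 20 genes and 5 introns with most members, the 10 members of highest signal, the first 3 hosting genes of each list, and Foxp3, Il2ra, Ctla4, Ikzf2 and Cd4. Other genes were named after their values were seen. No sequence is given for chromosome 18.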

Additional observations from a re-analysis of the deposited data

How the results depend on the processing

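No paired analysis was possible because both libraries were pooled by the authors before peaks were called, and for the same reason no replicate was left out. No alternative turned the direction of a density ratio or signal difference. Of the motif ratios, MEF2 crossed 1 with 100 bp windows (0.867, main 1.28), and C/EBP did so with the pseudoreplicated list (1.134) and the signal filter (1.133, main 0.888); both main intervals included 1. Of the 65 values recomputed for shares, densities, signals and gene shares, 26 stayed within the interval of the main value and 39 moved out of it. Of 84 recomputed motif ratios 70 stayed within, and 10 of the 14 that moved did so with 100 bp windows.

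The share of later intron peaks was 20.3% with the pseudoreplicated list, 15.1% with only peaks at or above the median signal, 11.3% with those of at least the median −log10 p, 17.9% with a TSS limit of 500 bp and 14.8% with 2500 bp. It was 14.9% with whole intervals outside exons, 15.9% with introns of all protein-coding transcripts and 13.5% over every listed summit. The density ratio of later over first introns was 0.911 with the signal filter, 0.579 with the −log10 p filter, 0.607 at 500 bp, 0.576 with whole intervals and 0.665 with all transcripts. The median signal of later minus first intron peaks was 1.25 with the pseudoreplicated list, 0.432 with the signal filter (interval -0.0506 to 0.888), 3.11 with the −log10 p filter, 1.67 at 2500 bp, 1.67 over every summit and 0.989 without peaks that had a neighbour within 5 kb, an alternative chosen after seeing the data. The difference from intergenic peaks was -0.14 with the signal filter (interval -0.537 to 0.186) and -0.00072 over every summit (-0.368 to 0.416). The share of T cell genes that hosted a member was 69.2% with the pseudoreplicated list, 31.3% with the signal filter and 35.2% with the −log10 p filter, beside 27.1%, 11.2% and 7.92% of all genes. The filters keep fewer peaks and so fewer hosts; the cause of the other moves was not tested.

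All values come from 1 biological sample with unknown depth. The spread between animals and the error of a single peak's signal are unknown, and a site absent from the thresholded list is not shown to be closed.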
